A study of Mus musculus with 16 samples.

Results

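Genes of the contactin and contactin-associated protein families were followed in the hippocampus of 3xTg and WT mice with and without inhibition of stearoyl-CoA desaturase. They are the 10 genes of the table named Cntnap1, Cntnap2, Cntnap4, Cntnap5a, Cntn1, Cntn2, Cntn3, Cntn4, Cntn5 and Cntn6, among 55335 genes in all. Each of the 10 was abundant enough to be tested, within the 16475 genes that passed a filter on low counts. The genes were chosen by name, with earlier results of these counts known. Which values led to the choice is not recorded, so the comparisons are descriptions of these genes and none of their p-values counts as independent evidence.

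Cntnap genes encode transmembrane proteins of the neurexin superfamily, and Cntn genes encode immunoglobulin-domain proteins held in the membrane by a lipid anchor. The families act in pairs: contactin-1 and Cntnap1 (Caspr) hold myelin loops against the axon at the paranode beside each node of Ranvier, while contactin-2 (TAG-1) and Cntnap2 (Caspr2) cluster voltage-gated potassium channels under the neighbouring juxtaparanode. The remaining contactins and Cntnap proteins act mainly at cell contacts and synapses between neurons, and human CNTNAP2 is linked to autism, epilepsy and language impairment.

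The cohort held 16 female mice aged 10 months, 4 in each of 4 groups, whose whole hippocampi were sequenced in bulk. WT-D mice (C57BL/6J x 129S1) and 3xTg-D mice received vehicle with 0.8% DMSO into the cerebral ventricles for 28 days, and WT-S and 3xTg-S mice received the desaturase inhibitor CAY10566 at 80 µM in that vehicle over the same time. The 3xTg line carries human APP with the Swedish mutation and human tau with the P301L mutation, both driven by the neuronal Thy1.2 element, on a knock-in of mutant presenilin 1. These comparisons address how the model differs from WT, and what inhibitor infusion changes in each genotype. The Thy1.2 element directs both transgenes to neurons, and every group received an infusion, so none was without surgery and vehicle.

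Reads on genes numbered 15413385 to 23590149 per library. Neuronal markers were high in every mouse, at a summed 5201 to 6596 counts-per-million of reads on genes (CPM) over 5 genes, and all tested marker genes of the 11 cell and region lists were detected in every group. Choroid plexus markers, which come from tissue bordering the hippocampus, summed to 727 CPM in 1 WT-D mouse (group median 53.5) and 290 CPM in 1 WT-S mouse (group median 29.8), and to 28.1 to 45.3 CPM in all 3xTg mice. App, into which reads of the human transgene may also be counted, ran from 2089 to 2448 CPM in 3xTg-D and from 2234 to 2628 CPM in 3xTg-S, above the 1578 to 1660 CPM of WT-D and the 1497 to 1705 CPM of WT-S, in the direction the genotype labels give.

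The genes differ greatly in size. Cntnap2 spans 2244857 bases of chromosome 6 (GRCm38, chr6:45059357-47304213, plus strand), and only 10248 of these are exonic. Cntn5 spans 1243885 bases, Cntn4 1021651 bases and Cntnap5a 902568 bases, whereas Cntn2 and Cntnap1 take up 33830 and 20202 bases. Cntn3 (chr6:102162655-102573101), Cntn6 (chr6:104492790-104863406) and Cntn4 (chr6:105677660-106699310) lie near each other on the chromosome that also holds Cntnap2. Cntnap5a lies on chromosome 1 (chr1:115684756-116587323). Counts of 7 genes came from exons that no other annotated gene shares. In the remaining 3, a gene on the opposite strand overlaps part of the exons: Plekhh3 overlaps 3.97% of Cntnap1, Gm45904 overlaps 8.01% of Cntnap4 and Gm32710 overlaps 6.4% of Cntn5, and the strand setting of the counting is not stated in the sources used here.

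Sequence upstream of a transcription start was looked up for the genes with a RefSeq entry (GRCm38.p6), which 7 of the 10 had. The 250 bases before one start of Cntnap2 (chr6:45059811-45060060, plus strand) and one start of Cntn4 (chr6:106118515-106118764, plus strand) are shown, as these are the genes on which the genotype and inhibitor comparisons turn, with CpG dinucleotides in capitals. Both windows lie inside the annotated span of their gene and touch none of its exons.
Cntnap2: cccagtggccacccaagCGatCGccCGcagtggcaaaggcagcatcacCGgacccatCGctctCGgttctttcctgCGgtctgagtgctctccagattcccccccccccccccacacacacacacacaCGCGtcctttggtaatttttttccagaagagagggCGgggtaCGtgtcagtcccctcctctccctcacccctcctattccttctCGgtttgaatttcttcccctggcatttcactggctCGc
Cntn4: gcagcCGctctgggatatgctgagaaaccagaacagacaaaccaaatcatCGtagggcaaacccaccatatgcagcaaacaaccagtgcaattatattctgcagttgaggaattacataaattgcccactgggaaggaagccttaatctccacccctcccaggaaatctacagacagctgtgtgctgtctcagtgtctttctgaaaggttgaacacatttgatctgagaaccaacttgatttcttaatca
The Cntnap2 window held 13 CpG dinucleotides and 59.6% G and C, with an observed to expected CpG ratio of 0.657. The Cntn4 window held 2 CpG and 44.4% G and C, with a ratio of 0.165. Over all 32851 windows the medians were 6 CpG, 52.4% G and C and a ratio of 0.373. The table lists another start for each gene, whose window touches its exons and differs from the one shown: 3 CpG and a ratio of 0.247 for Cntnap2, and 12 CpG and a ratio of 0.776 for Cntn4, with 1 CANNTG each. The CpG content thus depends on the start chosen. The letters CANNTG (an E-box, its own reverse complement in form) occurred 4 times in the Cntn4 window and were not found in that of Cntnap2, and 66.2% of all windows held them. GGGCGG, searched on both strands, occurred once in the Cntnap2 window and in 32.7% of all windows. TATAAA, on both strands, was found in neither and in 12.4% of all windows.

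Exact stretches of 50 bases were shared between genes in only one branch of the family. Coding sequences of 13 family genes were aligned in pairs. Cntnap5a matched Cntnap5b at 89.8% and Cntnap5c at 90.3% of aligned bases, Cntnap4 matched Cntnap3 at 70.3%, and Cntn3 matched Cntn4 at 68.0%. Pairs of a Cntnap gene with a Cntn gene, which are not homologous over their length, gave 59.8% to 63.5%. Of the 10896 stretches of 50 bases in Cntnap5a, 104 also occurred in Cntnap5b or Cntnap5c, and no such stretch of the other 9 genes occurred in another family gene. Reads that aligned to several places were tallied apart from the gene counts, and no genes outside the family were searched. The counts of Cntnap5a are uncertain to the extent of its shared stretches.

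**Figure D1:**
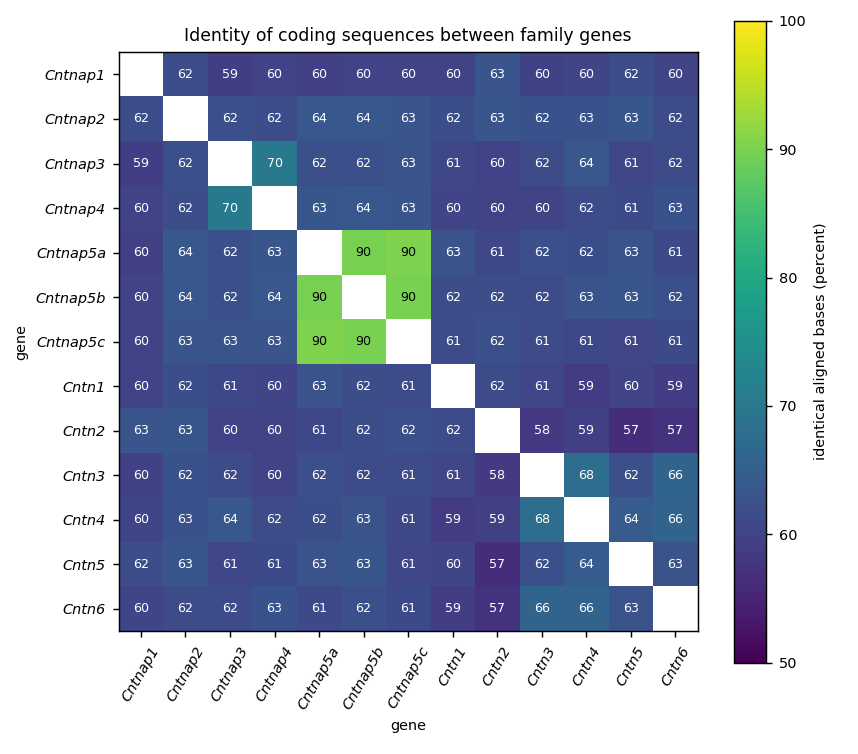
Identity between coding sequences of the 10 genes and their relatives Cntnap3, Cntnap5b and Cntnap5c, as percent of aligned bases for each pair (both axes list genes; the diagonal is left blank). The 3 Cntnap5 genes are the closest to each other, at about 90%.

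Levels were compared between genes per exon length, as CPM divided by the exon length in kilobases (RPKM). In WT-D mice the order ran from the paranodal contactin Cntn1 (70.5 RPKM) through Cntnap1 (25.6 RPKM), Cntnap2 (17.2 RPKM) and Cntn2 (10.6 RPKM), whose ranges over 4 mice were separate. Then came Cntnap5a (4.84 RPKM), Cntnap4 (4.42 RPKM), Cntn4 (3.93 RPKM) and Cntn3 (3.72 RPKM), each overlapping the next. Cntn6 (1.35 RPKM) and Cntn5 (1.09 RPKM) were lowest and overlapped each other, but not Cntn3. The first 4 places were the same in every group. In 3xTg-D mice Cntnap2 fell to 12.7 RPKM and its range (10.1 to 14.1) overlapped that of Cntn2 (8.63 to 13.0), which it did in no other group. Cntnap5a, in place 5 in both WT groups, was in place 7 in both 3xTg groups, at 3.77 RPKM in 3xTg-D and 4.39 RPKM in 3xTg-S. Relative levels depend on the length used: with the longest transcript in place of all exons, Cntn1 in WT-D stood at 117 RPKM and Cntn4, at 6.34 RPKM, stood above Cntnap4 at 5.71 RPKM.

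**Figure D2:**
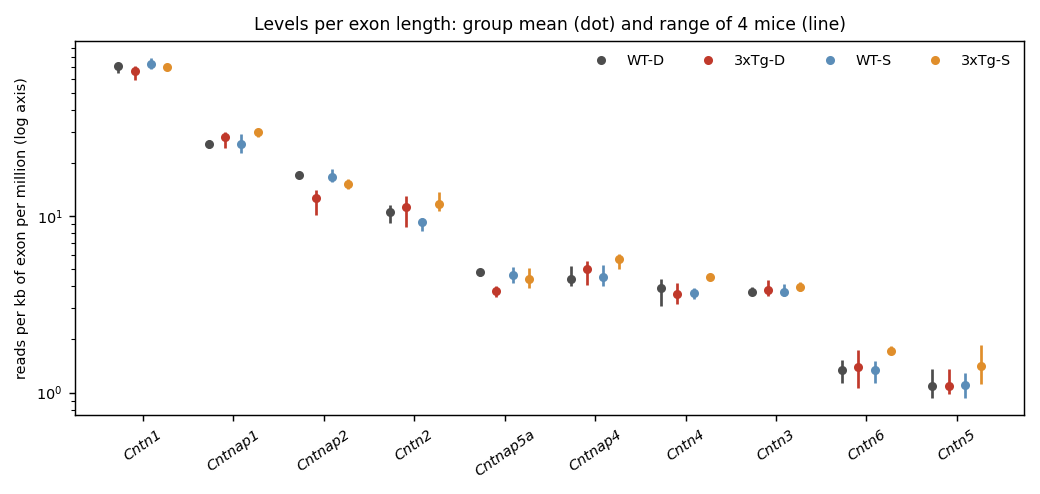
CPM per kilobase of exon (RPKM) on a log axis, for each gene and group. Dots are means and lines the range of 4 mice, with genes ordered by their WT-D mean from Cntn1 (70.5) to Cntn5 (1.09).

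In vehicle-infused mice, the 3xTg hippocampus had less Cntnap2 and less Cntnap5a mRNA than WT, and none of the other 8 genes passed the threshold. A gene was counted as changed at an unadjusted p of 0.01 or less in edgeR's quasi-likelihood test, and 2 of 10 genes were, both lower in 3xTg-D, against 4.91% of all tested genes. Both also had an adjusted p of 0.05 or less, which 1.85% of all tested genes had. The median log2 fold change of the 10 genes was 0.01, near that of all tested genes (-4.27e-05), and 5 of the 10 had positive values.

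Cntnap2 was measured at 182, 178, 174 and 171 CPM in the 4 WT-D mice and at 136, 104, 137 and 145 CPM in the 4 3xTg-D mice. The groups did not overlap, and one 3xTg-D mouse lay well below the other 3. The log2 fold change was -0.43 (SE 0.09, 95% interval -0.63 to -0.23), so that its level fell by 25.9%, with an edgeR adjusted p of 0.0398. Without the lowest mouse the log2 fold change was -0.34, and over all 8 omissions of 1 mouse it ran from -0.49 to -0.34, each passing the threshold, with adjusted p of up to 0.105.

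Cntnap5a, a neuronal family member of less well known function, was measured at 54.9, 49.9, 54.3 and 53.0 CPM in WT-D and at 40.8, 38.0, 44.3 and 42.0 CPM in 3xTg-D. Every 3xTg-D value lay below every WT-D value. The log2 fold change was -0.36 (SE 0.06, 95% interval -0.49 to -0.23), so that its level fell by 22.2%, with an edgeR adjusted p of 0.0127. Over the omissions of 1 mouse it ran from -0.40 to -0.32, each passing the threshold, with adjusted p of up to 0.0529. Of its close relatives, Cntnap5b averaged 22.0 CPM in the 3xTg-D mice against 24.7 CPM in WT-D (log2 fold change -0.17, SE 0.08), and Cntnap5c 14.1 and 11.7 CPM (0.27, SE 0.14), and neither passed the threshold.

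No other gene of the 10 passed the threshold, the contactin partner of Cntnap2 included. Cntn2, the juxtaparanodal partner of Cntnap2, stood at 106, 85.1, 95.7 and 107 CPM in WT-D and 109, 80.3, 106 and 121 CPM in 3xTg-D (log2 fold change 0.08, 95% interval -0.18 to 0.34). The paranodal genes Cntn1 and Cntnap1 had log2 fold changes of -0.08 (-0.23 to 0.07) and 0.13 (-0.02 to 0.29). Cntn4, Cntn3, Cntn5, Cntn6 and Cntnap4 had values of -0.12 to 0.17 with intervals that include 0. The 3xTg-D mouse with the lowest Cntnap2, mouse 2, was also the lowest of its group for Cntnap1 (143 CPM), Cntnap4 (25.7 CPM), Cntnap5a, Cntn1 (553 CPM), Cntn2, Cntn3 (23.8 CPM) and Cntn5 (4.45 CPM). With that mouse left out, Cntnap1 had a log2 fold change of 0.20 and passed the threshold, making 3 of 10.

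**Figure D3:**
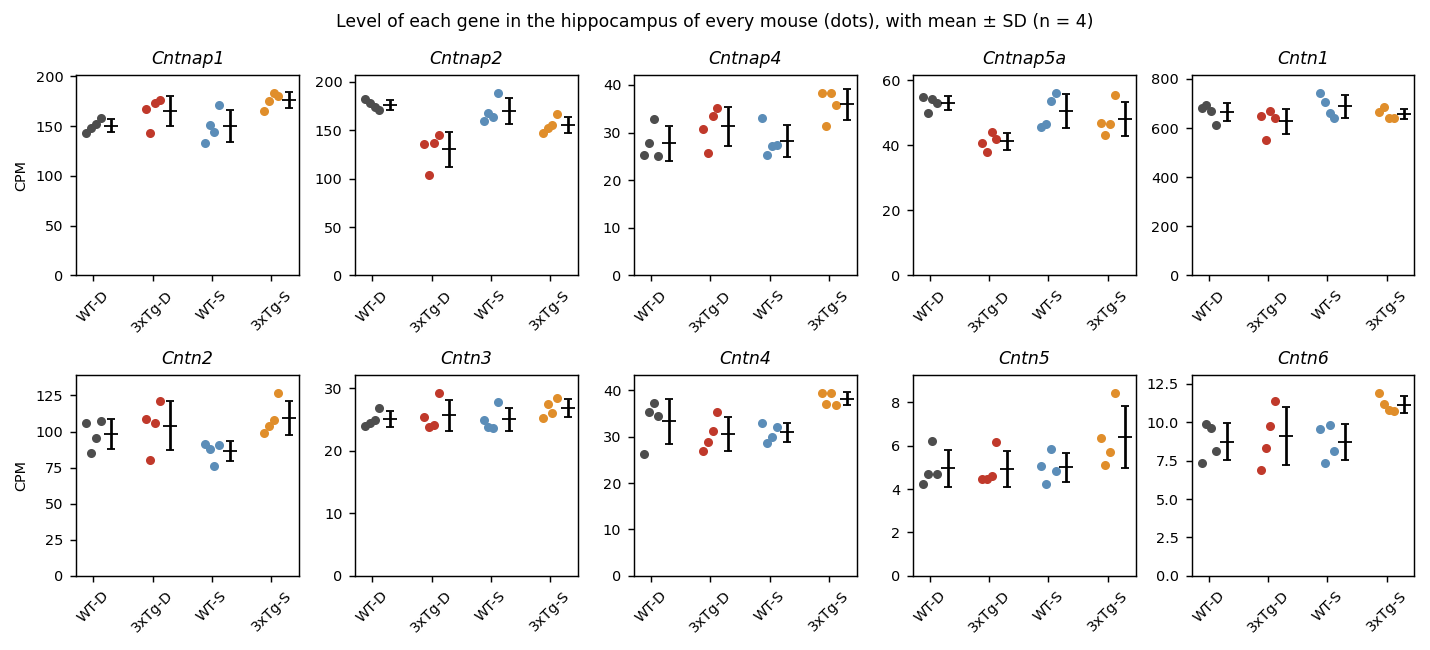
CPM of each of the 10 genes (vertical axes start at 0) in every mouse, by group; dots are mice and bars show the mean ± SD (n = 4). The 3xTg-D values of Cntnap2 (104 to 145) and Cntnap5a (38.0 to 44.3) lie below all WT-D values, and 3xTg-S values of Cntn4 (36.9 to 39.4) lie above all 3xTg-D and WT-S values.

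Genes that work with these proteins were mostly below the threshold as well. In the lists that follow, in order, 4.76%, 10%, 16.7% and 5% of genes passed, beside 4.91% of all tested genes. Of 21 genes of the node of Ranvier and its flanks, 1 was lower and none higher: Kcnq3, a subunit of the potassium channel of the axon initial segment and node, at a mean of 206 CPM in 3xTg-D against 256 CPM in WT-D (log2 fold change -0.31, SE 0.08, edgeR adjusted p = 0.0868). The list's median log2 fold change was -0.10, and 15 of 21 genes had negative values. The Cntnap2-associated channel genes Kcna1 (-0.16, SE 0.09) and Kcna2 (-0.18, SE 0.09) and the scaffold gene Epb41l3, whose product binds Cntnap proteins in the cytoplasm (-0.20, SE 0.09), did not pass. Among 10 contactin ligands and co-receptors only App was higher (0.51, SE 0.06, edgeR adjusted p = 0.000897). Reads of the human APP transgene may be counted into App, so its call may reflect the genotype itself. Of 6 intracellular partners and regulators of Cntnap2, the scaffold gene Mpp2 was higher (0.15, SE 0.05, edgeR adjusted p = 0.184), a call that was lost under 5 of 6 other fits and in 7 of 8 omissions of 1 mouse. Of 20 other immunoglobulin adhesion genes of neurons, Negr1 was higher (0.20, SE 0.04, edgeR adjusted p = 0.0479), and no gene of this list was lower.

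Cell type markers moved in the same comparison. Myelin genes summed to 5667 to 6768 CPM in 3xTg-D against 4404 to 5211 CPM in WT-D, without overlap, and 3 of 8 were higher. Markers of dentate granule cells summed to 205 to 225 CPM in 3xTg-D against 233 to 323 CPM in WT-D, also without overlap, and 2 of 4 were lower. Of the other lists, 1 of 6 interneuron genes was higher and 1 of 4 choroid plexus genes lower. In this comparison 4.91% of all tested genes passed. List medians of the log2 fold change ran from -1.96 (choroid plexus) to 0.31 (microglia). They were 0.19 for astrocytes, 0.15 for myelin and -0.31 for dentate granule cells, and no microglia or astrocyte gene passed. The 5 neuronal markers overlapped (5201 to 6475 against 6052 to 6596 CPM) and none passed. The part of these differences in the values of Cntnap2 and Cntnap5a was not tested, and in whole hippocampus fewer cells of a type and less RNA per cell cannot be told apart.

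In 3xTg mice, infusion of CAY10566 went with a higher level of Cntn4, and all 10 genes had positive log2 fold changes. Only Cntn4 passed the threshold in 3xTg-S vs 3xTg-D, 1 of 10 against 0.904% of all tested genes, and neither edgeR nor DESeq2 gave any gene of the table an adjusted p of 0.05 or less. At an unadjusted p of 0.05 or less it would have been 3 of 10, beside a fraction of all tested genes between 0.0337 and 0.0792. Those bounds are the fractions of genes with an edgeR p no larger than that of Cntnap2 and of Cntn5. The 10 values ran from 0.07 to 0.38, with a median of 0.21 beside 0.01 for all tested genes. The common direction depended on single mice: without 3xTg-D mouse 2, Cntn1 was -0.0016 and Cntn2 -0.047. Cntnap1 and Cntn3 were then 0.018 and 0.019, and without 3xTg-S mouse 4 Cntn2 was -0.014. Cntn4, a contactin of neuronal connections that binds APP, was measured at 26.9, 28.9, 31.2 and 35.3 CPM in 3xTg-D and at 39.4, 37.1, 39.4 and 36.9 CPM in 3xTg-S. The treated mice all lay above the untreated ones and were closely spaced. The log2 fold change was 0.32 (SE 0.09, 95% interval 0.13 to 0.51), or 24.9% more, with an edgeR adjusted p of 0.722. The call was lost without 3xTg-D mouse 1 or 2 and without 3xTg-S mouse 1 or 3 (0.27 to 0.39 over the 8 omissions).

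Cntnap2 stood at 147, 152, 155 and 166 CPM in 3xTg-S, between the ranges of 3xTg-D and WT-D and overlapping neither. Against 3xTg-D the log2 fold change was 0.25 (SE 0.10, 95% interval 0.03 to 0.47, edgeR adjusted p = 0.722), which did not pass, and without the lowest 3xTg-D mouse it was 0.14. Cntnap5a stood at 47.0, 43.1, 46.6 and 55.4 CPM in 3xTg-S, of which 1 mouse lay within the 3xTg-D range. Its log2 fold change was 0.22 (SE 0.09, 95% interval 0.03 to 0.41, edgeR adjusted p = 0.722) and did not pass. Cntn5 (0.38, SE 0.18), Cntn6 (0.29, SE 0.14) and Cntnap4 (0.20, SE 0.11) had wider intervals that include 0, and Cntn1, Cntn2, Cntn3 and Cntnap1 had values of 0.07 to 0.09.

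Positive values were also common among long genes in general. Tested genes that span 500000 bases or more numbered 220, and 181 of them had a positive log2 fold change in 3xTg-S vs 3xTg-D, with a median of 0.11, while 2 passed as higher and 1 as lower. Without the lowest 3xTg-D mouse for Cntnap2 that median was 0.06. In 3xTg-D vs WT-D the median of the long genes was -0.04, with 4 higher and 10 lower past the threshold, and in WT-S vs WT-D it was -0.01. Of the members, Cntnap2, Cntnap5a, Cntn4 and Cntn5 are among these long genes. None of the 60 genes in the family, node, ligand, intracellular and adhesion lists passed in 3xTg-S vs 3xTg-D by edgeR. Of the 60, 10 had an unadjusted edgeR p of 0.05 or less, beside a fraction of all tested genes between 0.0337 and 0.0792. DESeq2 called Cntnap5c and Kcnq3, and 1.00% of all tested genes. Of these lists, 17 of 21 node genes, 8 of 10 ligands and co-receptors and 17 of 20 adhesion genes had positive values there. Myelin markers were lower in the treated mice for 2 of 8 genes, against 0.904% of all tested genes, with a median log2 fold change of -0.36. Their summed ranges overlap (4332 to 6778 against 5667 to 6768 CPM). No gene of the other marker lists passed. Medians of those lists ran from -0.65 (choroid plexus) to 0.12 (striatum), with -0.32 for microglia, -0.23 for astrocytes and 0.07 for neurons. The part of the markers in the values of the 10 genes was not tested. The share of uniquely aligned reads outside annotated genes ran from 7.82% to 15.1% in 3xTg-S and from 8.79% to 11.3% in 3xTg-D. With this share as a covariate the log2 fold change of Cntn2 turned to -0.0056 and Cntn4 stayed past the threshold.

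**Figure D4:**
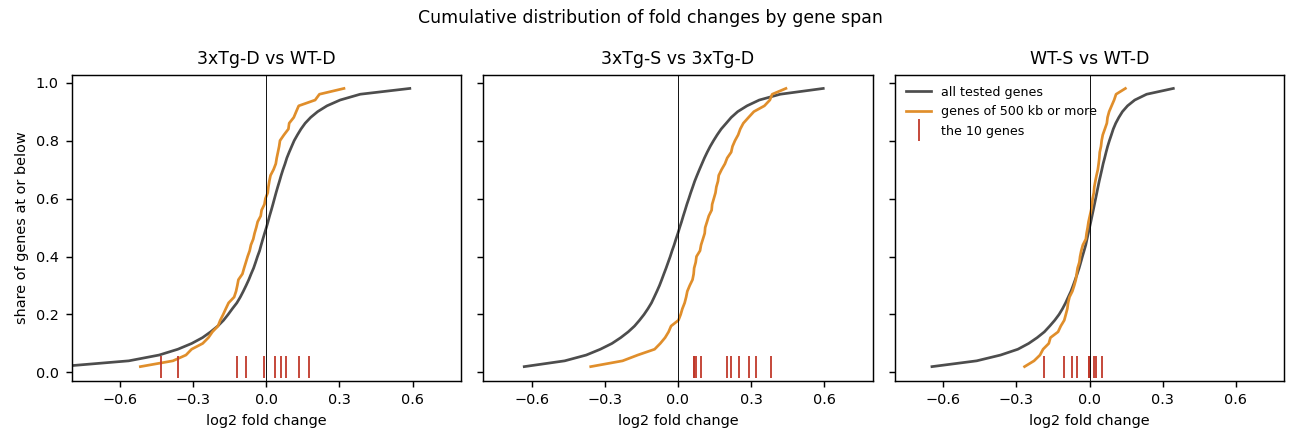
Cumulative share of genes at or below each log2 fold change (horizontal axis) in 3 comparisons, for all 16475 tested genes and for the 220 genes spanning 500000 bases or more; red ticks mark the 10 genes. In 3xTg-S vs 3xTg-D the long genes are shifted to higher values (median 0.11) and all 10 ticks lie above 0.

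In WT mice, none of the 10 genes passed the threshold on CAY10566 by edgeR, and 0.188% of all tested genes did. None reached an unadjusted p of 0.05 either, where a fraction of at most 0.02865 of all tested genes did. DESeq2 called none of the 10, and 0.268% of all tested genes. Log2 fold changes of the 10 genes in WT-S vs WT-D ran from -0.19 to 0.05, with 4 positive and a median of -0.002. Cntnap2 stood at 160, 167, 163 and 189 CPM in WT-S, overlapping WT-D, with a log2 fold change of -0.05 (95% interval -0.19 to 0.08). Cntn2 had the lowest value, -0.19 (95% interval -0.38 to 0.01), from 91.3, 87.8, 76.2 and 90.9 CPM in the 4 WT-S mice. Cntn4, at 33.0, 28.7, 29.98 and 32.1 CPM, had a value of -0.11 (95% interval -0.33 to 0.12). None of the 60 list genes passed by edgeR or DESeq2. By edgeR 1 had an unadjusted p of 0.05 or less, beside a fraction of at most 0.02865 of all tested genes.

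Whether the inhibitor acted differently in the genotypes was tested by an interaction term over all 16 mice. Cntn4 passed, 1 of 10 genes against 0.595% of all tested genes, with a difference between the log2 fold changes of 0.43 (SE 0.14, 95% interval 0.13 to 0.72, edgeR adjusted p = 0.788). Cntnap2 (0.30, 95% interval 0.05 to 0.56) and Cntnap5a (0.29, 95% interval 0.04 to 0.54) did not pass. Over the whole table, edgeR gave 0 genes and DESeq2 gave 1 gene with an adjusted p of 0.05 or less. All 10 differences were positive, with a median of 0.27 beside 0.01 for all tested genes, and 167 of the 220 long genes were positive too. The smallest of the 10, that of Cntn1 (0.016), turned to -0.014 without a filter and to -0.053 without 3xTg-D mouse 2. The Cntn4 call was kept in only 3 of 16 omissions of 1 mouse (0.37 to 0.53), those of WT-D mouse 1, 3xTg-D mouse 4 and WT-S mouse 1, and was lost with the share of reads outside genes as covariate (0.38).

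Inhibitor-treated 3xTg mice were also compared with each WT group. Against WT-D, 3 of 10 genes passed, where 5.69% of all tested genes did, and none had an edgeR adjusted p of 0.05 or less, where 1.58% of all tested genes did. With DESeq2 these 3 had an adjusted p of 0.05 or less, as had 585 of 16416 tested genes. Cntnap2 was still lower, by 13.1% (log2 fold change -0.20, SE 0.06, edgeR adjusted p = 0.122). Cntnap1 was higher, at 165, 175, 184 and 180 CPM against 143, 149, 153 and 158 CPM without overlap (0.21, SE 0.06, adjusted p = 0.111 by edgeR). Cntnap4, which is prominent in interneurons, was higher, at 38.3, 31.4, 38.3 and 35.9 CPM against 25.3, 27.7, 32.9 and 25.1 CPM, with overlap (0.35, SE 0.10, edgeR adjusted p = 0.125). Interneuron markers summed to 777 to 880 CPM in 3xTg-S against 722 to 839 CPM in WT-D, and 1 of 6 was higher. In the same comparison 2 of 4 dentate granule genes (median log2 fold change -0.36), 2 of 8 myelin genes (median -0.25) and 1 of 4 choroid plexus genes were lower and 1 of 4 oligodendrocyte precursor genes was higher, and the part of these in the calls was not tested. Cntnap5a did not pass, with a log2 fold change of -0.16 (95% interval -0.34 to 0.01). It did pass with the share of reads outside genes as covariate (-0.19) and without 3xTg-S mouse 4 (-0.23). The calls of Cntnap2, Cntnap1 and Cntnap4 were lost in 5, 3 and 6 of the 8 omissions of 1 mouse. None of the 3 was left without WT-D mouse 1 or 2 or without 3xTg-S mouse 3, though Cntn6 newly passed without WT-D mouse 2. Only Cntnap1 was left without 3xTg-S mouse 1, and in one fit of all 16 mice only that of Cntnap4 was.

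Against WT-S, 3 of 10 genes passed, all higher in 3xTg-S, where 4.26% of all tested genes passed. None had an edgeR adjusted p of 0.05 or less, where 1.4% of all tested genes did. With DESeq2 1 of 10 had such an adjusted p, and 402 of 16465 tested genes. Cntn4 differed by 0.29 (SE 0.07, edgeR adjusted p = 0.114) and Cntn2 by 0.32 (SE 0.09, edgeR adjusted p = 0.166), both without overlap of the groups. Cntn2 stood at 98.9, 104, 108 and 127 CPM in 3xTg-S. Cntnap4 differed by 0.33 (SE 0.10, edgeR adjusted p = 0.207), with overlap. Cntnap2 and Cntnap5a had values of -0.14 (95% interval -0.31 to 0.02) and -0.09 (95% interval -0.30 to 0.13). Cntn6, at 11.9, 11.2, 10.8 and 10.7 CPM in 3xTg-S, lay above every WT-D and WT-S mouse (7.35 to 9.89 CPM) but missed the threshold against both. Of the markers, 1 of 4 dentate granule genes was lower and 1 of 4 oligodendrocyte precursor genes higher in 3xTg-S than in WT-S, and their part was not tested. The calls of Cntn4, Cntn2 and Cntnap4 were lost in 1, 4 and 6 of the 8 omissions of 1 mouse, none was left without WT-S mouse 2, and only Cntn4 without WT-S mouse 3 or 3xTg-S mouse 3 or 4.

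**Figure D5:**
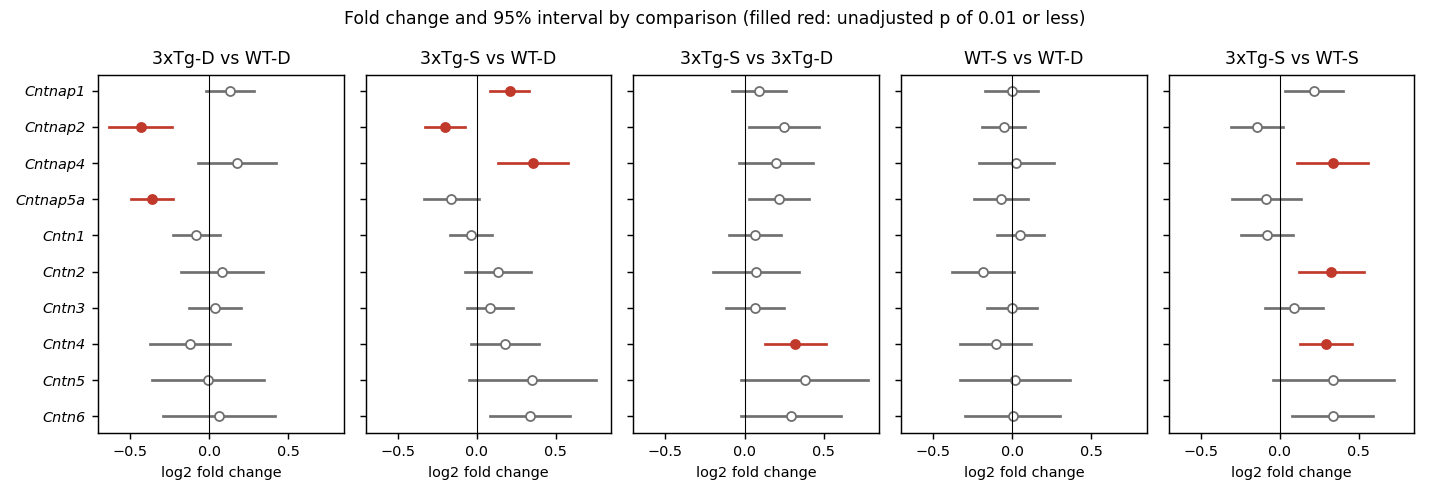
Log2 fold change (horizontal axis) with its 95% interval for the 10 genes in the 5 comparisons of groups; filled red points have an unadjusted p of 0.01 or less. Cntnap2 and Cntnap5a lie left of 0 in 3xTg-D vs WT-D (-0.43 and -0.36), and in 3xTg-S vs 3xTg-D all 10 points lie right of 0. Comparisons in which a group recurs share its mice.

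Among the other family and partner genes, a close relative of Cntnap5a had the largest fold change past the threshold. Cntnap5c was higher in 3xTg-S, at a mean of 20.5 CPM (range 14.3 to 25.8), than in WT-S at 10.0 CPM (log2 fold change 1.02, SE 0.21, edgeR adjusted p = 0.0449) and WT-D at 11.7 CPM (0.79, SE 0.18, edgeR adjusted p = 0.0672). Against WT-D, Lgi3, a secreted ligand of juxtaparanodal Adam proteins, was lower (-0.23, SE 0.07), and the adhesion genes Negr1 (0.22, SE 0.06) and Lsamp (0.16, SE 0.05) were higher. None of these 3 had an edgeR adjusted p of 0.05 or less, the values being 0.163 for Lgi3, 0.122 for Negr1 and 0.176 for Lsamp. Their calls were lost in 6, 6 and 7 of the 8 omissions of 1 mouse.

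The levels of Cntnap2 over the 16 mice were followed most closely by Prkca (Pearson's r = 0.936, Spearman's rho = 0.909), Col25a1 (0.891 and 0.894), Ppp1r12b (0.878 and 0.747), Nav1 (0.875 and 0.871) and Far2 (0.872 and 0.732), all on the log2 CPM scale. These coefficients take in the difference between the groups. With group means subtracted, a different set of genes came first: Gpr158 (r = 0.963), Heatr5b (0.946), Wdr7 (0.943), Slc24a2 (0.937) and Kif1a (0.936). Among the members, Cntnap2 and Cntnap5a had r = 0.862 over the 16 mice and 0.604 with group means subtracted. Cntnap2 and its partner Cntn2 had r = 0.05 over the 16 mice and 0.755 with group means subtracted, and Cntnap2 and Cntnap1 had -0.04 and 0.810. Cntn4 and Cntn6, neighbours on chromosome 6, had 0.833 and 0.784. Spearman's rho with group means subtracted was 0.609 for Cntnap2 with Cntnap5a, 0.559 with Cntn2 and 0.765 with Cntnap1. For Cntn4 with Cntn6 it was 0.75. How common such values are over all gene pairs was not examined. The points share libraries, so these values describe the 16 mice and carry no test.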

How the data were processed

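Hippocampal mRNA of 16 mice was sequenced as single-end reads with molecular identifiers. Trimming used Trimmomatic 0.35 and alignment STAR 2.5.1b (GRCm38, Gencode M23). The values deposited by the authors are raw counts of reads for each of 55335 genes, not normalized, with 4 alignment summary lines that were left out of library sizes. Strand setting and removal of duplicate molecules are not given in the sources used here. In the labels, protocol wording names another inhibitor, ab142089, and the treatment labels were followed.

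The 10 genes and all lists were chosen with earlier results of these data known. In R 4.3.3, edgeR 4.0.16 (filterByExpr with a minimum count of 10 and minimum total of 15, TMM, two-sided quasi-likelihood test on the 2 groups compared) was fitted to all 16475 genes left of 33942 with at least 1 count. The study's threshold, an unadjusted p of 0.01, defined calls, and p-values were Benjamini-Hochberg adjusted over all tested genes. The interaction was fitted to all 16 mice. CPM used TMM over 16 mice, and log2 CPM a prior count of 2. List genes were named by the rule of a p of 0.01 or less, and 1 of these is not reported here. Kcna1, Kcna2, Epb41l3, Cntnap5b and, in 3xTg-D vs WT-D, Cntnap5c fall outside the rule and were chosen after their values were seen. Mice are taken as separate animals from their labels, and no library was a copy of another (chi-square per degree of freedom 3.91 or more within groups). At these depths the rarest of the 10 genes, Cntn5, had at least 4.22 CPM, or 81 to 156 reads per mouse. At such counts both the counting and the spread between mice enter the precision. Gene models, lengths and coding sequences came from Gencode M21 (same build, identical spans) and upstream windows from RefSeq. Biopython 1.88 aligned coding sequences. The fits were tested on simulated data.

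By the check used, the same replicate numbers pair the mice where each pair's deviations from the group means correlate above 0.1. Only WT-S vs WT-D met this, at 0.114 to 0.340, with a mean of 0.217. The mean was similar in 3xTg-S vs WT-S (0.241, pairs from -0.101 to 0.496) and 3xTg-S vs 3xTg-D (0.213, pairs from 0.0158 to 0.391). Pairing there is left undecided, and the comparisons as reported take all mice as unpaired. The replicate numbers come from the labels. Alternatives were DESeq2 1.42.0, RLE size factors, no filter, one fit of all 16 mice, a replicate block, the share of reads outside genes as covariate, each mouse left out, and transcript length for RPKM. Results for list genes under these were added after the values were seen.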

Additional observations from a re-analysis of the deposited data

Results flagged for a closer look

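Cntn5 in the 3xTg-D group was flagged because 1 mouse stood apart: mouse 4 had 6.16 CPM and the other 3 had 4.45 to 4.62 CPM. Chance flags about 1 in 20 groups by this criterion, and 40 groups of values (10 genes in 4 groups) were examined. Cntn4 was flagged because its response to CAY10566 differed between genotypes by a test of the difference itself: the log2 fold change was 0.43 higher in 3xTg than in WT mice (edgeR interaction, adjusted p = 0.788), with all 4 3xTg-S mice above all 3xTg-D mice and overlapping groups in WT.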

How the results depend on the processing

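The lower levels of Cntnap2 and Cntnap5a in 3xTg-D passed the threshold under all alternatives run. Of 350 values of the 10 genes under settings other than leaving out a mouse, 331 kept direction and side of the threshold, 9 newly passed, 3 no longer passed and 7 changed direction, and of 560 values with a mouse left out these numbers were 479, 5, 42 and 34. With 4 mice a group the 95% interval of the scarce Cntn5 spanned -0.36 to 0.34 in 3xTg-D vs WT-D, which limits what is detectable, and edgeR as reported gave 0 genes of the table an adjusted p of 0.05 or less in WT-S vs WT-D and 3xTg-S vs 3xTg-D. Other settings gave up to 2 in WT-S vs WT-D and, in 3xTg-S vs 3xTg-D, up to 2 apart from the replicate block, which gave 204.

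Members called changed from 3 to 1 in 3xTg-S vs WT-D with all 16 mice in one fit, and from 1 to 2 in 3xTg-S vs 3xTg-D with that fit. Replicate numbers do not pair the mice there by the check used, though same-number pairs correlated at a mean of 0.213, so pairing is undecided. With the replicate block 4 members were called in 3xTg-S vs 3xTg-D (Cntnap2, Cntnap4, Cntnap5a and Cntn4), with 1133 genes of the table called against 149. For the interaction 2 members were called with the block (624 genes against 98). With the block 1339 genes were called in 3xTg-S vs WT-S against 702, and 115 in WT-S vs WT-D against 31. The block changed no member call in WT-S vs WT-D, where numbers pair the mice by that check. The interaction had 0 members called with the share of reads outside genes as covariate. With each mouse left out, members called ran from 2 to 3 in 3xTg-D vs WT-D, 0 to 3 in 3xTg-S vs WT-D, 0 to 2 in 3xTg-S vs 3xTg-D, 0 to 0 in WT-S vs WT-D, 0 to 3 in 3xTg-S vs WT-S and 0 to 1 for the interaction. The cause was not tested.

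Log2 fold changes that turned direction were those near 0. With the covariate they were Cntn5 in 3xTg-D vs WT-D (0.10), Cntn2 in 3xTg-S vs 3xTg-D (-0.0056) and, in WT-S vs WT-D, Cntnap1 (0.035) and Cntn3 (0.043). Cntn3 in WT-S vs WT-D was 0.000486 with DESeq2 and 0.000574 with RLE size factors, and Cntn1 for the interaction was -0.014 without a filter. With a mouse left out, 3xTg-D vs WT-D gave -0.0071 to 0.19 for Cntn2, -0.037 to 0.070 for Cntn3, -0.14 to 0.11 for Cntn5 and -0.069 to 0.17 for Cntn6. 3xTg-S vs 3xTg-D gave -0.0016 to 0.098 for Cntn1 and -0.047 to 0.15 for Cntn2. WT-S vs WT-D gave -0.070 to 0.048 for Cntnap1, -0.062 to 0.12 for Cntnap4, -0.050 to 0.031 for Cntn3, -0.070 to 0.14 for Cntn5 and -0.072 to 0.076 for Cntn6. The interaction gave -0.053 to 0.055 for Cntn1.

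Without a filter, 355 genes of the table were called in 3xTg-S vs 3xTg-D, 180 in WT-S vs WT-D, 1077 in 3xTg-S vs WT-S and 208 for the interaction. With all 16 mice in one fit, 249 were called in 3xTg-S vs 3xTg-D and 48 in WT-S vs WT-D, where the covariate gave 49. Without WT-S mouse 4, 516 genes were called in WT-S vs WT-D, and without 3xTg-S mouse 2, 802 in 3xTg-S vs 3xTg-D.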
